A study of Rattus norvegicus with 11 samples.

Results

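Messenger RNA of Myc, 3 partners of its network and 6 nucleolar genes was followed in the striatum of 11 rats 3 days after intracerebral hemorrhage. The 10 genes were chosen by symbol for their function, not by their values, among the 30560 genes of the deposited table. They are Myc, Mycn, Max and Mxd1, which encode transcription factors, and Ncl, Npm1, Fbl, Nop56, Nop58 and Polr1b, whose products work in the nucleolus. All 10 were among the 15742 genes with enough counts to be tested. They were chosen with earlier results of these rats known.

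The rats were adult male Sprague-Dawley rats. The 2 Normal rats received neither collagenase nor aspiration, so that no group had a needle track without hemorrhage. The 3 IC rats (common hemorrhage) had 0.2 U bacterial collagenase VII-S in 1.0 µL saline injected into the right striatum. The 3 IS rats (severe hemorrhage) received 0.6 U in 3.0 µL. The 3 IS-HA rats received the IS dose and had 150 µL of the hematoma withdrawn through a catheter 6 h later. Collagenase digests the vessel wall, and bleeding follows. RNA came from a piece of the striatum of the injected side, or the matching region in Normal, with 1 library per rat, and p-values therefore measure the spread between rats.

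Myc is a transcription factor that binds DNA as a dimer with Max, preferentially at the E-box CACGTG, and Mxd1 competes for Max and represses the same sites. Mycn is the paralog of Myc best known from the developing nervous system. Among the best known targets of Myc are the genes that make ribosomes. RNA polymerase I, of which Polr1b is the second largest subunit, transcribes ribosomal RNA in the nucleolus. Fibrillarin (Fbl), Nop56 and Nop58 form the box C/D particles, in which small nucleolar RNAs guide methylation of the ribosomal RNA. Nucleolin (Ncl) acts in early processing, and nucleophosmin (Npm1) in the assembly and export of the subunits.

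The E-box was looked for in the promoters, because it is the site by which Myc and Max are best known. Windows of 250 bases before to 50 bases after the RefSeq start (build GRCr8) were present for 8 of the 10 genes, all but Myc and Mycn. CACGTG, which reads the same on both strands, stood in 2 of these 8 windows, in Max and Fbl. It stood in 6.42% of all 33469 windows of the table and in 9.11% of the 11912 windows of tested genes. The variant CACGCG, searched on both strands, stood in none of the 8 and in 16.0% of the windows of tested genes. The windows of Max (chr6:101395241-101395540, minus strand) and Fbl (chr1:92597157-92597456, plus strand) are given 5′ to 3′ because they hold the motif, in capitals. That of Npm1 (chr10:18255692-18255991, minus strand), which lacks the motif, is given because Npm1 was the only nucleolar gene of the set called higher in all 3 injured groups.
Max: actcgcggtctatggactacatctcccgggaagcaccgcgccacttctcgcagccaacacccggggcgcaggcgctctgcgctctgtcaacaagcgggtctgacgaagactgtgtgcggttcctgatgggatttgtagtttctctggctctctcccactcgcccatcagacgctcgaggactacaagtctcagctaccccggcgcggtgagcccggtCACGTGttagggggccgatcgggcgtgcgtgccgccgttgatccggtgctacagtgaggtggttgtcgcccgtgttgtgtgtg
Fbl: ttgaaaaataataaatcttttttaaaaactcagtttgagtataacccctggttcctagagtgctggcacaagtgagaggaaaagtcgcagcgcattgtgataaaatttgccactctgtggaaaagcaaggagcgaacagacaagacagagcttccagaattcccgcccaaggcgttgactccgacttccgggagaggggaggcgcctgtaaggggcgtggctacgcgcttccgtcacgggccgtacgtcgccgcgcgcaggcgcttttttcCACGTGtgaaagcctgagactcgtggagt
Npm1: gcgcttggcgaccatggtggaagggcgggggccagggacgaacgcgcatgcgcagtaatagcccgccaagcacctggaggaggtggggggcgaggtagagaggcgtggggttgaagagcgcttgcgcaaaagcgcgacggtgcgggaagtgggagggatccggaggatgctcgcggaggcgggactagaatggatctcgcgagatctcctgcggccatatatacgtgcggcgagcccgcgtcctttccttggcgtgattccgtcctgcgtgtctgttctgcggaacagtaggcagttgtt
The motif began 33 bases before the start of Max and 22 bases after that of Fbl. A match of 6 letters is a description of the window and was not tested for binding.

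The libraries held between 6701301 and 18817645 counts assigned to genes, and a gene at 3 counts stood at 0.448 CPM (counts scaled to a common library total) in the smallest. IS-HA replicate 2, the smallest library, stood apart. Its log2 CPM correlated with those of the other IS-HA rats at 0.904 and 0.911, while the other pairs of rats within a group had 0.946 to 0.981. The changes in IS-HA against Normal are therefore given with and without it. Values are CPM after TMM normalization unless named otherwise, with means ± SD between rats. Log2 fold changes, their approximate standard errors (SE) and adjusted p-values came from the quasi-likelihood test of edgeR, and p-values were adjusted by the Benjamini-Hochberg method over all 15742 genes. A change was called at an adjusted p under 0.05. Markers of striatal projection neurons were present in Normal, with a summed level of 6602.9 to 7256.5 CPM for the 10 genes of that list.

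Among the 10 genes, 2 were called higher and 0 lower in IC against Normal, where 17.6% of all genes tested were called, 13.0% higher and 4.64% lower. In IS against Normal 5 were higher and 1 was lower, where 49.0% of all genes were called, 24.8% higher and 24.2% lower. In IS-HA against Normal 4 were higher and 1 was lower, where 31.5% of all genes were called, 19.5% higher and 12.1% lower. Myc and Npm1 were called in all 3 comparisons. Ncl, Fbl and Mycn were called in IS and IS-HA, and Max in IS. Nop56, Nop58, Polr1b and Mxd1 were called in none of them. Groups that do not overlap were common with so few rats. In IC 5 of the 10 genes were above both Normal rats in every rat and 1 was below them, as were 32.4% and 31.3% of all genes tested. In IS 7 were above and 3 below, beside 37.6% and 36.9% of all genes, and in IS-HA 7 were above and 3 below, beside 31.7% and 29.2%. The share of all genes that separate several groups pooled from the rest, as given for some genes below, was not counted. Without IS-HA replicate 2 the numbers called were 4 higher and 1 lower in IC, 5 and 2 in IS, and 4 and 0 in IS-HA. Over all genes, that fit called 5291 in IC, 9453 in IS and 4489 in IS-HA, beside 2770, 7710 and 4965 with all rats. The 3 comparisons share the 2 Normal rats. When Normal replicate 1 was left out, the calls in IS were 3, of Myc, Npm1 and Fbl, and when Normal replicate 3 was left out they were 2, of Myc and Npm1. In IS-HA they were 2 in either case, again of Myc and Npm1.

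Myc had 5.41 and 3.66 CPM in the Normal rats. It had 13.8, 27.4 and 18.6 CPM in IC, 24.3, 23.4 and 32.2 CPM in IS, and 17.8, 21.9 and 23.5 CPM in IS-HA. All 9 injured rats were above both Normal rats, and the 3 injured groups overlapped each other. Myc was 4.40-fold higher in IC than in Normal (log2 fold change 2.14, SE 0.329, adjusted p = 0.0014). It was 5.85-fold higher in IS (log2 fold change 2.55, SE 0.335, adjusted p = 0.000259) and 4.63-fold higher in IS-HA (log2 fold change 2.21, SE 0.331, adjusted p = 0.000905). These 3 calls were kept in each of 21 alternative fits, with log2 fold changes of 1.83 to 2.44 in IC and 2.25 to 2.86 in IS. IS exceeded IC by a log2 fold change of 0.41 (SE 0.267, adjusted p = 0.359), and IS-HA differed from IS by -0.34 (SE 0.268, adjusted p = 0.689), neither past the test. The IS-HA value against Normal was 2.18 without IS-HA replicate 2 (adjusted p = 0.00142).

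**Figure D1:**
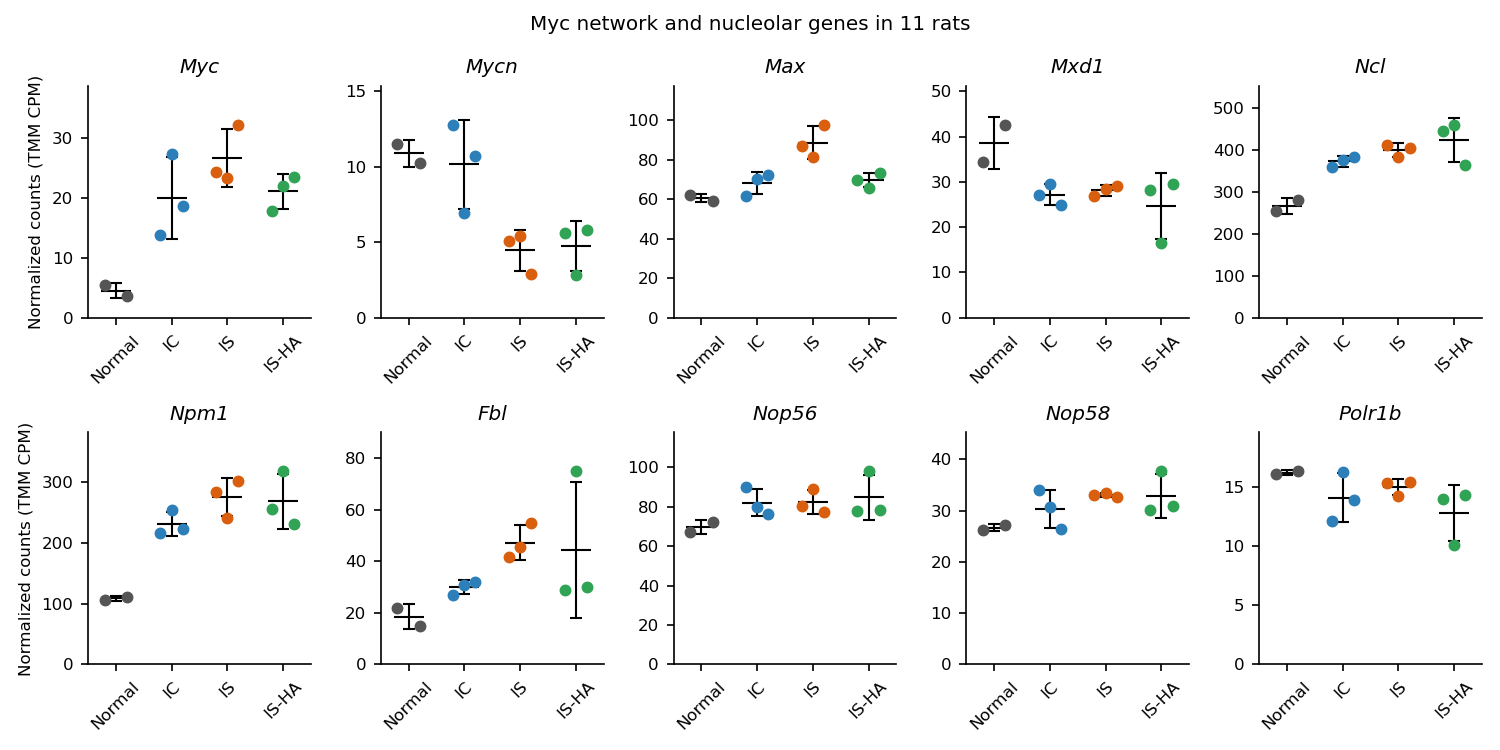
Normalized counts (TMM CPM, each axis starting at 0) of the 10 genes in each rat, by group, with 2 Normal rats and 3 rats in every other group; points are rats, and the black marks and bars are the mean and SD. The 9 injured rats lie above both Normal rats for Myc, Npm1, Ncl and Fbl, and the IS and IS-HA rats lie below the Normal and IC rats for Mycn.

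Mycn went the other way. It had 11.5 and 10.2 CPM in Normal, and 12.8, 6.95 and 10.7 CPM in IC. In IS it had 5.07, 5.39 and 2.89 CPM and in IS-HA 5.62, 2.84 and 5.77 CPM. The 6 rats with the larger collagenase dose were all below the other 5 rats. Against Normal, the log2 fold change was -0.10 in IC (SE 0.361, adjusted p = 0.868), -1.27 in IS (SE 0.368, adjusted p = 0.0156) and -1.17 in IS-HA (SE 0.367, adjusted p = 0.0335). Without IS-HA replicate 2, which had 18 reads of Mycn, the IS-HA value was -0.93 and was no longer called (adjusted p = 0.0603). IS against IC gave -1.17 (SE 0.340, unadjusted p = 0.00562, adjusted p = 0.150), and this difference passed with DESeq2's Wald test (adjusted p = 0.0311) and in the fit without IS-HA replicate 2 (adjusted p = 0.0318).

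In TPM values, which divide by gene length and so allow genes to be set beside each other, Mycn exceeded Myc in Normal and Myc exceeded Mycn in every injured rat. The ratio of Myc to Mycn TPM was 0.524 and 0.399 in the Normal rats. It was 1.21, 4.39 and 1.94 in IC, 5.34, 4.83 and 12.4 in IS, and 3.54, 8.61 and 4.53 in IS-HA. The ratio was lowest in Normal and higher in every IS rat than in every IC rat, while IS-HA overlapped both. Myc made up 28.5 and 34.4% of the sum of the 2 genes in Normal and 82.9 to 92.6% in IS.

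**Figure D2:**
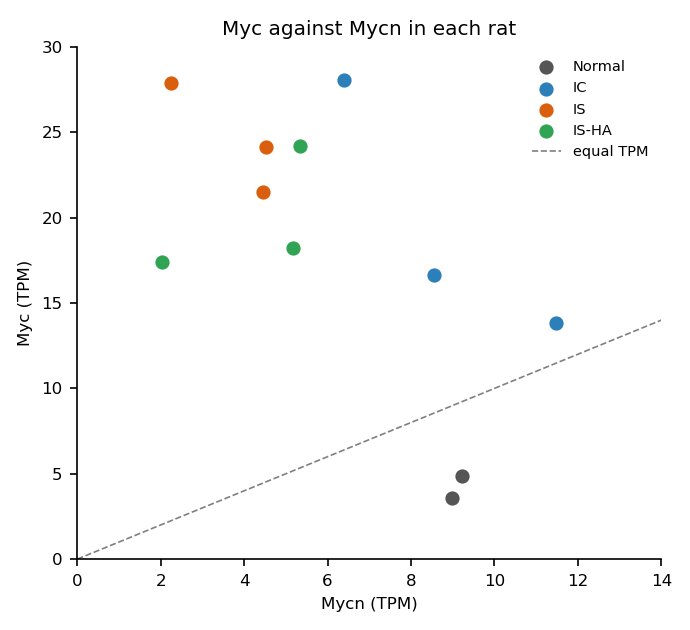
Myc TPM (vertical axis) against Mycn TPM (horizontal axis) in each of the 11 rats, coloured by group, with a dashed line of equal TPM. The 2 Normal rats lie below the line and the 9 injured rats above it, and the IS and IS-HA rats lie at the left, at 2.02 to 5.34 TPM of Mycn.

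Max, the obligate partner, had 62.2 and 59.4 CPM in Normal, 61.8, 70.5 and 72.5 CPM in IC, 87.1, 81.2 and 97.9 CPM in IS, and 69.98, 65.95 and 73.4 CPM in IS-HA. Every IS rat was above every other rat. The log2 fold change against Normal was 0.55 in IS (SE 0.152, adjusted p = 0.0132), and 0.17 in IC (adjusted p = 0.459) and 0.20 in IS-HA (adjusted p = 0.320) were not past the test. Leaving out IS-HA replicate 2 gave 0.24 in IS-HA (adjusted p = 0.237). In IS-HA against IS it was -0.35 (SE 0.135, unadjusted p = 0.0262, adjusted p = 0.543). Max was 13.4 and 19.0 times as abundant as Myc in TPM in the Normal rats and 3.02 to 5.23 times as abundant in the injured rats.

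The repressor Mxd1 had 34.5 and 42.7 CPM in Normal, 24.9 to 29.5 CPM in IC, 26.8 to 29.2 CPM in IS, and 28.2, 16.4 and 29.5 CPM in IS-HA. All 9 injured rats were below both Normal rats. Groups wholly below Normal held for 31.3% of all genes tested in IC, 36.9% in IS and 29.2% in IS-HA. Its log2 fold changes against Normal were -0.50 in IC (adjusted p = 0.155), -0.45 in IS (adjusted p = 0.132) and -0.63 in IS-HA (adjusted p = 0.0620), none past the test. In IS-HA it was -0.42 without replicate 2 (adjusted p = 0.0714).

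Npm1 had 105 and 111 CPM in Normal, 217, 254 and 222 CPM in IC, 284, 241 and 302 CPM in IS, and 257, 318 and 231 CPM in IS-HA. All 9 injured rats were above both Normal rats, and the injured groups overlapped. It was 2.13-fold higher in IC (log2 fold change 1.09, SE 0.192, adjusted p = 0.0031), 2.54-fold higher in IS (1.35, SE 0.194, adjusted p = 0.000421) and 2.48-fold higher in IS-HA (1.31, SE 0.193, adjusted p = 0.000837). The IS and IS-HA calls were kept in each of 21 alternative fits and the IC call in 20 of them, the exception being the replicate block (log2 fold change 0.98, adjusted p = 0.0875). When IS-HA replicate 2 was left out, the IS-HA value was 1.17 (adjusted p = 0.000777).

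Ncl was the most abundant of the 10 in every rat, at 127 and 154 TPM in Normal. In CPM it had 254 and 281 in Normal, 359.5, 377 and 384 in IC, 413, 383 and 406 in IS, and 447, 461 and 365 in IS-HA. The 9 injured rats were above both Normal rats by a smaller factor than for Npm1. The log2 fold change was 0.48 in IC (SE 0.167, adjusted p = 0.0692), which was not past the test, 0.58 in IS (SE 0.167, adjusted p = 0.0150) and 0.66 in IS-HA (SE 0.168, adjusted p = 0.0135). The other 2 IS-HA rats alone gave 0.60 (adjusted p = 0.0180). The row of the pseudogene Ncl-ps1, looked up after the values were seen, held 46 to 193 reads per rat and was also higher in IS (log2 fold change 0.99, adjusted p = 0.0343). Reads of near-identical copies can be split between such rows, so the level of Ncl is uncertain to that extent.

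Fbl, the methyltransferase of the box C/D particle, had 21.8 and 15.0 CPM in Normal and 26.8, 30.8 and 31.9 CPM in IC. It had 41.5, 45.5 and 54.7 CPM in IS, and 28.8, 74.9 and 29.8 CPM in IS-HA. Every IS rat was above every IC rat, and within IS-HA replicate 2 stood far above the others. The log2 fold change was 0.70 in IC (SE 0.381, adjusted p = 0.217), 1.36 in IS (SE 0.390, adjusted p = 0.0149) and 1.27 in IS-HA (SE 0.389, adjusted p = 0.0312). Without IS-HA replicate 2 the IS-HA value was 0.67 (adjusted p = 0.0339), and the difference between IS and IC, 0.66 as measured with all rats (adjusted p = 0.260), passed the test (adjusted p = 0.0336). Its paralog Fbll1, also looked up after the values were seen, had a log2 fold change of -0.94 in IS against Normal (SE 0.322, adjusted p = 0.0322).

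The other core proteins of the particle were not called. Nop56 had 67.2 and 72.4 CPM in Normal and 76.6 to 98.1 CPM in the injured rats, with log2 fold changes of 0.23 in IC, 0.24 in IS and 0.28 in IS-HA (adjusted p = 0.331, 0.241 and 0.202). Nop58 had 26.3 and 27.1 CPM in Normal and 26.5 to 37.7 CPM in the injured rats, with 0.19, 0.31 and 0.30 (adjusted p = 0.477, 0.163 and 0.207). The ratio of Nop56 to Nop58 in TPM stayed between 6.01 and 7.31 in all 11 rats, whereas the ratio of Fbl to Nop56 ran from 0.332 and 0.520 in Normal to 0.817, 0.829 and 1.13 in IS and reached 1.22 in IS-HA replicate 2. Polr1b had 16.1 and 16.3 CPM in Normal and 10.1 to 16.2 CPM in the injured rats, with log2 fold changes of -0.20 in IC, -0.11 in IS and -0.33 in IS-HA (adjusted p = 0.531, 0.679 and 0.245). The IS-HA values without replicate 2 were 0.16 for Nop56, 0.19 for Nop58 and -0.19 for Polr1b. For Nop56, Nop58 and Polr1b no call was made in any of the 21 alternative fits.

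**Figure D3:**
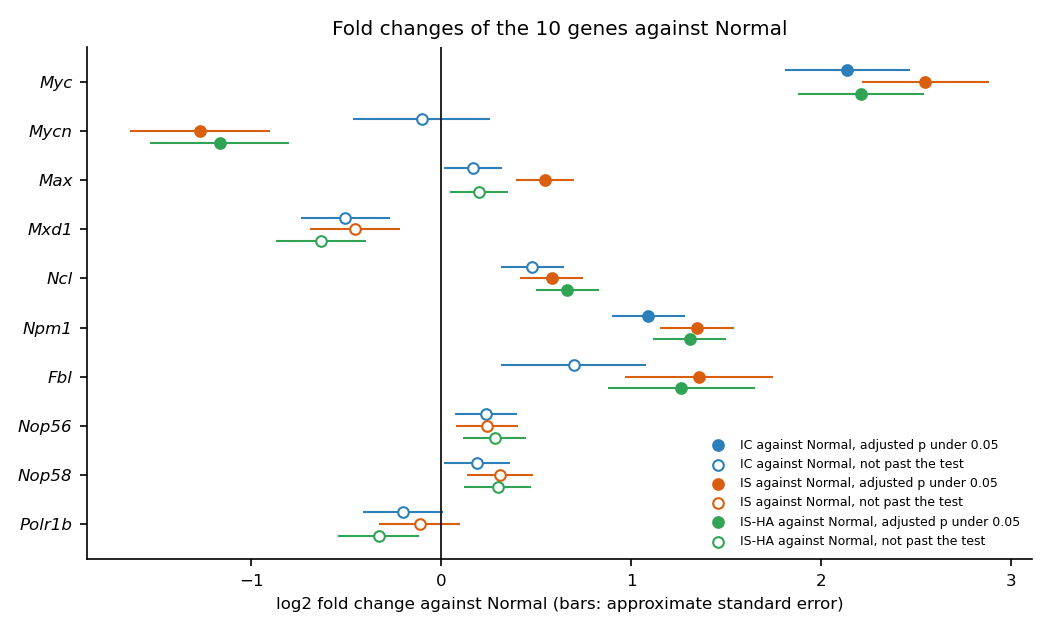
Log2 fold change against Normal of the 10 genes in IC, IS and IS-HA (colours), from edgeR; bars are approximate standard errors, filled points passed the test at an adjusted p under 0.05 and open points did not. Myc stands at 2.14 to 2.55, Npm1 at 1.09 to 1.35, and Mycn at -1.27 in IS and -1.17 in IS-HA, while Polr1b lies between -0.33 and -0.11.

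None of the 10 genes was called in IS against IC or in IS-HA against IS. In IS against IC edgeR called 0 of the 15742 genes, with 3498 at an unadjusted p under 0.05, and DESeq2's Wald test called 976. In IS-HA against IS 1 gene was called (0.00635% of those tested), with 1408 at an unadjusted p under 0.05 and 68 calls by DESeq2. Max and Fbl were higher in every IS rat than in every IC rat, which held for 19.2% of all genes tested, and Mycn was lower, as were 18.7%. Max was lower in every IS-HA rat than in every IS rat, which held for 5.42%, and none of the 10 was higher in every IS-HA rat, which held for 4.96%.

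The wider pathway was read from 8 lists, whose counts stand beside the shares of all genes tested. These were 24.8% higher and 24.2% lower in IS against Normal, 13.0% and 4.64% in IC, and 19.5% and 12.1% in IS-HA. They hold for the fit with all rats and change when a rat is left out. Without IS-HA replicate 2, 30.2% of all genes were higher in IS. List counts from fits without a rat show how the calls depend on that rat and are not results about the list. Of 13 genes of the Myc/Max/Mxd network, 4 were higher and 2 lower in IS against Normal, with a median log2 fold change of 0.11 beside 0.02 for all genes tested. Mxd3, a relative of Mxd1 associated with dividing cells, was 16.2-fold higher (log2 fold change 4.02, SE 0.667, adjusted p = 0.000905), from 0.577 ± 0.264 TPM in Normal to 9.60 ± 1.48 TPM in IS. Mlxipl, a glucose-responsive transcription factor that pairs with Mlx, had 1.19 (adjusted p = 0.0038). Mga, which binds Max as an alternative partner, had -1.83 (SE 0.461, adjusted p = 0.00805). In the network list 3 genes were higher and 0 lower in IC, and 3 and 1 in IS-HA. When IS-HA replicate 2 was left out, the numbers were 3 and 1 in IC, 4 and 4 in IS and 3 and 0 in IS-HA. In IS they were 3 and 1 without Normal replicate 1, and 2 and 0 without Normal replicate 3.

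RNA polymerase I and its factors gave 5 higher and 0 lower of 16 genes in IS against Normal (median 0.34), 0 in IC and 3 higher in IS-HA. The genes with the greatest change encode peripheral or shared subunits. Polr1g had a log2 fold change of 1.53 (SE 0.349, adjusted p = 0.00486), Polr1d, which RNA polymerase III also uses, had 1.39 (SE 0.342, adjusted p = 0.00725), and Polr1h had 1.09 (SE 0.299, adjusted p = 0.0120). The largest subunit, Polr1a, had -0.20 (adjusted p = 0.452), close to Polr1b. The calls of this list turned on single rats. In IS they were 0 without Normal replicate 3, 2 without Normal replicate 1, 3 without IS replicate 4 and 6 without IS-HA replicate 2, where IC had 3 and IS-HA 3. In IS-HA they were 2 without Normal replicate 1 and 0 without Normal replicate 3.

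Of 17 genes of the box C/D and H/ACA particles 5 were higher and 1 lower in IS (median 0.38). Shq1 and Naf1 are both assembly factors of H/ACA particles. Shq1 had 1.29 (SE 0.365, adjusted p = 0.0140) and Naf1 had -0.79 (SE 0.242, adjusted p = 0.0200). Gar1, a core H/ACA protein, had 1.09 (adjusted p = 0.0381), and Pih1d1, which serves in the assembly of box C/D particles, had 1.05 (adjusted p = 0.0110). In IC 0 genes of this list were called and in IS-HA 2 were higher. Here too the calls turned on single rats. In IS 0 were called without Normal replicate 3, 2 were higher without Normal replicate 1, 3 when IC replicate 3 or 4 or IS replicate 3 or 4 was left out, and 9 without IS-HA replicate 2. In IS-HA 2 were higher without its replicate 2, 4 without its replicate 1 or 3, and 0 without either Normal rat, and in IC 4 were higher without IS-HA replicate 2.

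Factors that build the small subunit gave 8 higher and 2 lower of 44 genes in IS (median 0.36), which is 18.2% higher beside 24.8% of all genes. That share was 40.9% beside 30.2% without IS-HA replicate 2, and its order against all genes was thus set by 1 rat. Imp4 had 0.90 (adjusted p = 0.0134), Utp3 0.85 (adjusted p = 0.00636), Bysl 0.85 (adjusted p = 0.0323) and Utp25 -0.81 (adjusted p = 0.00723). Factors of the large subunit gave 16 higher and 2 lower of 46 (median 0.42). Npm3, a relative of Npm1, had 1.68 (SE 0.324, adjusted p = 0.00203), Mrto4 1.48 (adjusted p = 0.00196), Lyar 1.25 (adjusted p = 0.0103), and Mdn1, a very large ATPase of pre-60S maturation, -1.24 (adjusted p = 0.0153). In IC 0 of the 44 and 3 of the 46 were higher, and in IS-HA 7 and 12. The numbers higher in the small- and large-subunit lists without IS-HA replicate 2 were 18 and 25 in IS, 5 and 11 in IC and 5 and 9 in IS-HA. Without Normal replicate 1 they were 3 and 11 in IS and 1 and 2 in IS-HA, and without Normal replicate 3 they were 2 and 9 in IS and 0 and 1 in IS-HA. Leaving out IC replicate 2 or 4 or IS replicate 3 gave 4 small-subunit genes higher in IS-HA, and leaving out IS replicate 3 gave 7 large-subunit genes. In IC 1 large-subunit gene was higher when either Normal rat, IC replicate 3 or 4 or IS replicate 3 was left out.

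In these 4 nucleolar lists together, 34 of 123 genes were higher and 5 lower in IS against Normal, which is 27.6% higher beside 24.8% of all genes. Leaving out IS-HA replicate 2 gave 58 (47.2%, beside 30.2% of all genes), without Normal replicate 1 it was 18 (14.6%, beside 17.6%), and without Normal replicate 3 it was 11 (8.94%, beside 14.01%). The median log2 fold change was 0.39 with all rats and 0.37 to 0.39 in these 3 fits. CACGTG stood in 39.5% of the windows of the small-subunit list (15 of 38) and in 35.7% of those of the large-subunit list (15 of 42), in 18.8% of those of the box C/D and H/ACA list (3 of 16) and in 6.67% of those of RNA polymerase I (1 of 15), beside the 9.11% of tested genes. Among the listed genes with a window, 10 of 34 with the motif and 22 of 76 without it were higher in IS (29.4 and 28.9%), and the median log2 fold changes were 0.43 and 0.38.

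The ribosomal protein genes had the highest share of genes called higher of the 8 lists in IS and in IS-HA, but not in IC, where their 15.1% lay below the 23.1% of the Myc/Max/Mxd network. Of 73 tested, from a list of 80, 64 were higher and 0 lower in IS against Normal (87.7%, median log2 fold change 1.57). In IS-HA 61 were higher (median 1.48) and in IC 11 (median 0.93). Rplp0 had 2.56 (SE 0.437, adjusted p = 0.00105), Rpsa 2.49 (SE 0.580, adjusted p = 0.00547) and Rps28 2.40 (SE 0.686, adjusted p = 0.0146). The list took 2.37 and 1.77% of all TPM in the Normal rats, 3.86 to 4.59% in IC, 5.69 to 7.22% in IS, and 4.15, 9.16 and 4.49% in IS-HA. CACGTG stood in 5 of its 58 windows (8.62%). The counts turned on single rats. Without IS-HA replicate 2 they were 58 in IC, 71 in IS and 44 in IS-HA, and the IS-HA median was 0.87. Without Normal replicate 3 they were 0, 10 and 2, and without Normal replicate 1 they were 2, 54 and 26. The count in IC was 3 without IC replicate 3 and 2 without IC replicate 4. Ribosomal protein genes have many processed copies in the genome, and how reads matching several places were counted is not given in the sources used here.

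Of 21 textbook Myc targets outside the nucleolus 11 were higher and 0 lower in IS (median 0.89), with 4 in IC and 10 in IS-HA. Without Normal replicate 1 or 3 those higher were 6 and 5 in IS, 2 and 1 in IC, and 4 and 4 in IS-HA. Leaving out IS-HA replicate 2 gave 15 in IS, beside 30.2% of all genes higher there, 9 in IC and 9 in IS-HA. It took the IS-HA median from 0.86 to 0.41. Without IC replicate 3 the number higher in IC was 2, beside 8.32% of all genes. Odc1, the first enzyme of polyamine synthesis, had 1.73 (SE 0.177, adjusted p = 6.7e-05), Mthfd2, an enzyme of mitochondrial folate metabolism, had 1.78 (SE 0.311, adjusted p = 0.0012), and Nme2 had 1.50 (adjusted p = 0.0195). Of 15 genes listed for Myc feedback and degradation, not all of which act on Myc itself, 6 were higher and 2 lower in IS. In this list 3 were higher in IC, and 5 were higher and 1 lower in IS-HA. Without Normal replicate 3 these were 4 and 1 in IS, 1 and 0 in IC and 2 and 0 in IS-HA, and without IS-HA replicate 2 they were 7 and 2, 5 and 2, and 5 and 2. Fbxw7, the ubiquitin ligase that marks Myc for degradation, had -1.27 (SE 0.302, adjusted p = 0.00603). Cip2a, which protects Myc from dephosphorylation, had 3.19 (SE 0.413, adjusted p = 0.000238). Cdkn2a had 4.08 (SE 1.01, adjusted p = 0.00752) from 0.236 ± 0.164 TPM in Normal, and Cdkn1a had 2.19 (adjusted p = 0.00062). In IS against IC and in IS-HA against IS 0 genes of the 8 lists were called by edgeR. DESeq2's Wald test called 3 Myc targets, 1 ribosomal protein, 1 large-subunit and 1 feedback gene higher and 2 network genes lower in IS against IC, and none of the lists' genes in IS-HA against IS. Of all genes tested by DESeq2, 3.18% were higher in IS than in IC. Without IS-HA replicate 2, edgeR called 31 ribosomal protein genes, 7 Myc targets, 5 large-subunit, 2 small-subunit, 2 box C/D and H/ACA, 1 RNA polymerase I and 1 feedback gene higher and 3 network genes lower in IS than in IC. Over all genes, that fit called 2241 in IS against IC, in either direction. In IS-HA against IS edgeR then called 1 network gene higher and 1 Myc target lower, beside 695 of all genes.

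**Figure D4:**
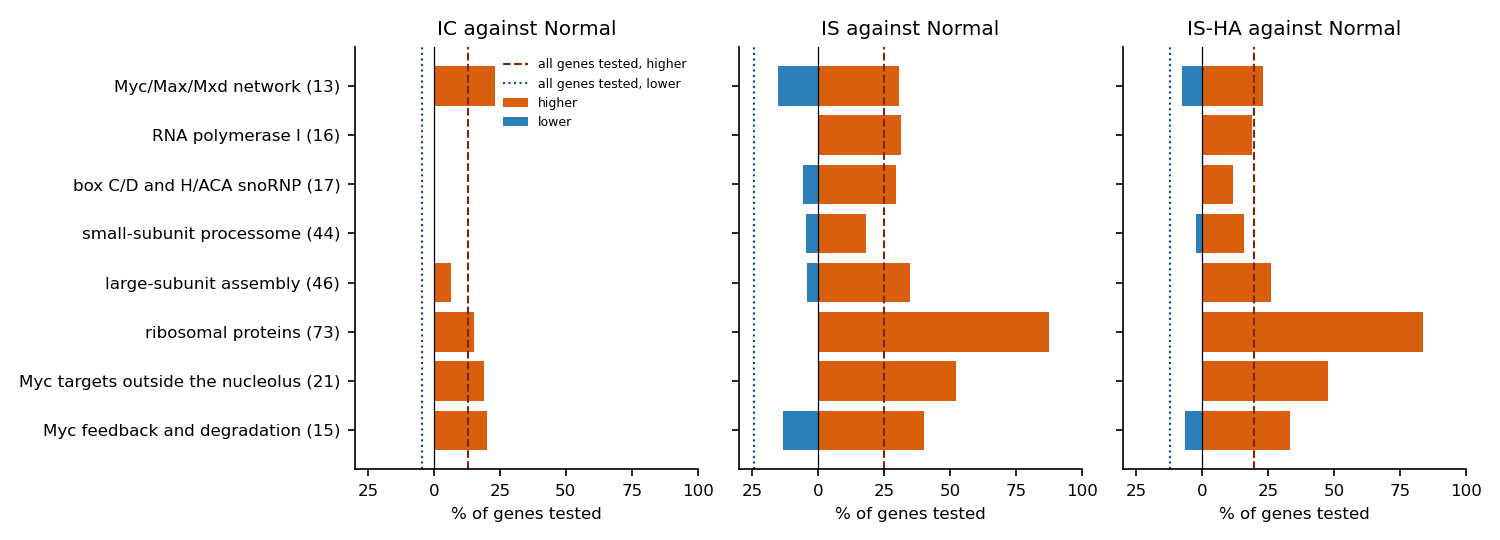
Share of the genes of each list (number tested in brackets) that were called higher (orange, to the right) or lower (blue, to the left) against Normal in IC, IS and IS-HA, with dashed and dotted lines for the shares among all genes tested. Ribosomal proteins reach 87.7% in IS and the small-subunit list 18.2%, beside 24.8% of all genes.

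Gene length moved with the changes. Relative to the median gene tested, as read from the ratio of counts to TPM, genes shorter than 0.5 stood at a median of 0.57 (log2 fold change, IS against Normal), and genes of at least 2 at -0.63. The ribosomal protein genes had a median relative length of 0.372 and Fbl had 0.395, whereas Ncl had 1.39, Npm1 1.10, Mycn 0.867 and Myc 0.777. Mdn1 and Mga, which were lower, were long genes at 5.96 and 3.90. A correction that removed the trend on length from each rat, added after the data were seen, left Myc at 2.25 (adjusted p = 0.00035), Npm1 at 1.32 (adjusted p = 0.000832), Ncl at 0.73 (adjusted p = 0.0135) and Mycn at -1.50 (adjusted p = 0.00555) in IS against Normal. It took Fbl to 0.65 (adjusted p = 0.0614) and Max to 0.14 (adjusted p = 0.474), neither called, and Mxd1 passed at -0.67 (adjusted p = 0.0273). The ribosomal protein genes called higher were then 40 in IS (median 0.87), 33 in IS-HA and 5 in IC. Of the 4 nucleolar lists together 21 genes were then higher and 7 lower in IS (median 0.22, beside -0.10 for all genes). The box C/D and H/ACA list had 1 higher and 2 lower (median 0.05), the RNA polymerase I list 2 and 0, the small-subunit list 7 and 4 and the large-subunit list 11 and 1. Of the Myc targets 9 were higher in IS and 5 in IS-HA. The share of all genes called higher in IS, 24.8%, is that of the fit without this correction. It does not apply to the counts after the correction, which have no share of all genes beside them here.

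**Figure D5:**
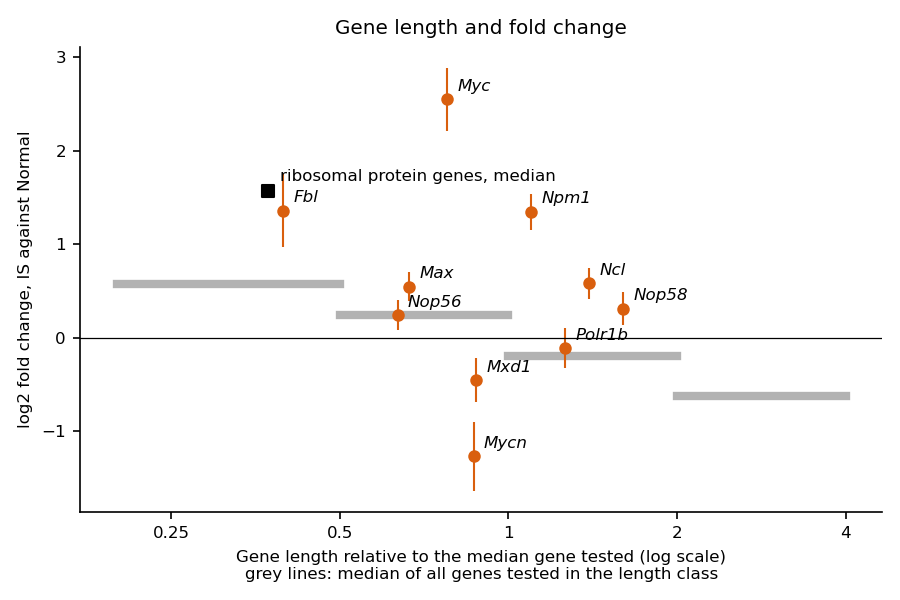
Log2 fold change of the 10 genes in IS against Normal (vertical axis, bars are approximate standard errors) by gene length relative to the median gene tested (horizontal axis, log scale), with the median of the ribosomal protein genes as a square and grey lines for the median of all tested genes in 4 length classes, the outer of which are open-ended. Fbl and the ribosomal protein genes lie among short genes, where the grey line is at 0.57, and Myc and Npm1 lie far above the grey lines at their own lengths.

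Markers of several cell types, though not of all that were listed, moved with the same groups. Of all genes tested, 13.0% were higher and 4.64% lower in IC against Normal. In IS these shares were 24.8 and 24.2%, and in IS-HA 19.5 and 12.1%. The 12 markers of microglia and macrophages summed to 402 to 565 CPM in Normal, 1864 to 2377 in IC, 2599 to 3773 in IS and 2215 to 3402 in IS-HA, and 11, 10 and 11 of the 12 were called higher against Normal. The 12 markers of proliferating cells summed to 67.5 to 82.8 CPM in Normal, 331 to 538 in IC, 563 to 632 in IS and 475 to 594 in IS-HA, with 12 of 12 higher in each. The 7 markers listed for monocyte-derived cells summed to 133 to 141 CPM in Normal and 7824 to 19906 CPM in IS, and all 7 were called higher in each injured group. Spp1 and Gpnmb made up most of the reads of this list, at 411638 and 181665 over the 11 rats. Ccr2 had 638 and Ly6c 404. The 9 neutrophil markers summed to 4.36 to 5.10 CPM in Normal, 48.3 to 107 in IC, 173 to 234 in IS and 74.0 to 272 in IS-HA, and the 6 that were tested were called higher in each injured group. Mpo, Elane and Camp among the 9 had 0 reads in both Normal rats, and Elane, with 66 reads in total, passed the filter through the injured groups. With at least 10 counts in every rat 1 marker was tested, and it was called higher in each injured group. The replicate block called 4 of 6 higher in IC. The 7 markers of T and NK cells summed to 0.988 to 1.43 CPM in Normal and 103 to 315 in IS, with 3 of the 5 tested higher. Most of that sum was Cd8a, with 9154 reads over the 11 rats beside 243 of Cd2, the next highest. Cd3e, Cd3g and Cd3d had 130, 61 and 42 reads. The markers tested were near the floor of detection in Normal. Cd3d had 0 reads in 1 Normal rat and passed the filter through the injured groups. With the replicate block 1 of the 5 was called higher in IS. The 12 neuronal markers summed to 5676 to 6832 CPM in Normal, 2116 to 3469 in IC, 968 to 2836 in IS and 2016 to 3451 in IS-HA. In IS 11 of them were lower and 0 higher. With TMM without hemoglobin and mitochondrial genes 4 were lower in IC and 3 in IS-HA. The numbers depended on the fit. DESeq2's Wald test called 7 neuronal markers lower in IC and 9 in IS-HA, and the groups compared alone gave 11 and 4. With the replicate block 0 were lower in IC, 3 in IS and 2 in IS-HA. Of the 10 markers of striatal projection neurons 9 were lower in IS and in IS-HA but 1 in IC. The 7 oligodendrocyte markers summed to 24313 to 26461 CPM in Normal, 13910 to 19097 in IC, 9313 to 15146 in IS and 14285 to 18444 in IS-HA, with 6 lower in IS, 0 in IC and 1 in IS-HA. Without Normal replicate 1 or 3 the oligodendrocyte markers lower in IS were 2 in either case, and those of striatal projection neurons 5 and 6. Astrocyte markers summed to 4346 to 4470 CPM in Normal and were highest in IC, at 9410 to 12342, with 5869 to 9553 in IS and 7539 to 9383 in IS-HA. Gfap had the most reads of this list, 668849 over the 11 rats, beside 166664 of S100b, the next highest. With TMM without hemoglobin and mitochondrial genes, 1 of the 7 was called higher and 1 lower in each injured group. The median log2 fold changes of the list were then 0.02 in IC, -0.50 in IS and 0.12 in IS-HA. Endothelial markers summed to 238 to 353 CPM in Normal, 389 to 473 in IC, 480 to 528 in IS and 379 to 606 in IS-HA. Those of red blood cells had 67.4 to 82.5, 51.1 to 232, 34.8 to 57.5 and 18.7 to 47.5 CPM in the same order. The part of these cell types in the changes of Myc, Mycn and the nucleolar genes was not tested. In bulk tissue, more cells of a type and more RNA per cell cannot be told apart, and neither can fewer cells and less RNA per cell.

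Within Normal, the order of the levels in TPM was Ncl at 127 and 154, then Nop56 (73.6 and 86.8), Npm1 (66.8 and 77.2) and Max (65.0 and 68.0), of which neighbours overlapped. Fbl (38.3 and 28.8) and Mxd1 (27.4 and 37.1) overlapped each other below them. Nop58 followed at 11.4 and 12.9, then Polr1b at 8.85 and 9.85 and Mycn at 9.23 and 8.98, and Myc was lowest at 4.84 and 3.58. In IS the lowest was Mycn, at 2.25 to 4.51 TPM, below Polr1b at 8.06 to 9.36, and Myc, at 21.5 to 27.9, overlapped Mxd1 at 22.5 to 23.7. Between groups, the levels of Myc in IC, IS-HA and IS overlapped, as did those of Npm1 and Ncl.

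The genes whose log2 CPM followed Myc most closely over the 11 rats were a gene with the identifier ENSRNOG00000070418 and no symbol (Pearson's r 0.995), Fhod1 (0.992), Bcl3 (0.991), Dock8 (0.991) and Chek1 (0.990). With 2860 genes above an r of 0.8, the likeness is shared widely. For Ncl they were ENSRNOG00000064240 (0.977), Ddb1 (0.973), Dock11 (0.972), Fkbp9 (0.967) and Psma1 (0.963), with 2126 genes above 0.8. The points share the group means, and the values are a description.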

How the data were processed

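RNA of the striatum was sequenced in 11 rats from poly(A) libraries as paired-end reads. The authors deposited read counts per gene, whole numbers without normalization, and TPM, in which counts are divided by gene length and scaled per rat. The submitters' processing notes name fastp 0.20.0, HISAT2 2.1.0, SAMtools 1.9, featureCounts and the build mRatBN7.2. Whether counting used strand is not given in the sources used here. Every column was matched to its rat by library name, and 0 were left unmatched.

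From the deposited counts, genes were filtered with filterByExpr, normalized by TMM and tested with the quasi-likelihood F test of edgeR 4.0.16 in R 4.3.3, with the 4 groups in a single fit, Benjamini-Hochberg adjusted p-values for 15742 genes and a common dispersion of 0.0691. Standard errors were approximated as the size of the log2 fold change over the root of its F statistic. At 3 counts, the floor of detection, the smallest library gives 0.448 CPM, for counting error only. TPM served for ratios between genes, and the ratio of counts to TPM for relative gene length.

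The members and lists were chosen with earlier results of these data known. Named beside the 10 genes were, from each of 8 pathway lists, up to 3 further genes with the greatest absolute change in IS against Normal among those called, and the lowest if it was called in the opposite direction; and the 5 genes most like Myc and Ncl. Fbll1, Ncl-ps1 and Polr1a were added after their values were seen.

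The alternatives, 21 fits per gene and comparison, were DESeq2's size factors, library size alone, TMM without 9 hemoglobin and 15 mitochondrial genes, DESeq2 1.42.0, limma 3.58.1 on log2(TPM + 1), no filter, at least 10 counts in every rat, the groups compared alone, the replicate block, each of 11 rats left out, and, added after seeing the data, a length correction. The fits were tested on simulated data. Promoter sequences are from RefSeq (GRCr8). Plots were drawn with matplotlib 3.10.9.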

Additional observations from a re-analysis of the deposited data

How the results depend on the processing

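With 2 Normal rats, calls against Normal rest on few libraries. Leaving out each rat in turn gave 2 to 5 called members in IC against Normal (2 in the report; 5 without IS-HA replicate 2), 2 to 7 in IS against Normal (6; 3 without Normal replicate 1 and 2 without Normal replicate 3), 2 to 6 in IS-HA against Normal (5; 2 without either Normal rat), 0 to 2 in IS against IC (0; Mycn and Fbl without IS-HA replicate 2) and 0 to 0 in IS-HA against IS. Where a Normal rat was left out, the remaining Normal rat was assumed to vary like the other groups. With the groups compared alone, 5 members were called in IC and 2 in IS-HA against Normal. DESeq2's Wald test called 1 in IS against IC, Mycn. The cause was not tested.

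The replicate numbers do not pair the rats, which are different animals. The deviations of same-numbered IS and IC rats correlated at 0.339, -0.321 and 0.0830. With the replicate number as a block, 1 member was called in IC against Normal, Myc, and 2 each in IS and IS-HA against Normal, Myc and Npm1, and the genes called were 839 in IC, 2787 in IS and 2416 in IS-HA.

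Over all genes the calls in IC, IS and IS-HA against Normal were 2770, 7710 and 4965. They were 834, 3960 and 1580 without Normal replicate 3, 1286, 5670 and 2589 without Normal replicate 1, and 5291, 9453 and 4489 without IS-HA replicate 2, which also gave 2241 in IS against IC and 695 in IS-HA against IS. With the groups compared alone they were 5627, 8215 and 2422. Of the 123 tested genes of the 4 nucleolar lists, those higher in IC, IS and IS-HA were 3, 34 and 24. They were 20, 40 and 2 with the groups compared alone, 19, 53 and 37 with library size alone and 0, 2 and 3 with the replicate block. Of all genes, 19.0, 27.2 and 10.6% were higher with the groups compared alone. With library size alone 16.7, 29.2 and 24.2% of all genes were higher, and with the replicate block 5.23, 11.9 and 11.1%. DESeq2, which tested 124 genes of these lists, called 12 higher in IC, 36 in IS and 28 in IS-HA, beside 14.9, 18.6 and 19.4% of all genes. Library size alone moved the median of all genes against Normal to 0.14, 0.15 and 0.18, and the length correction moved it to -0.16, -0.10 and -0.11.

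The changes of sign were all in values that were not called. With the length correction, Max was at -0.17 in IC and -0.19 in IS-HA against Normal, and Nop56 at -0.11 in IC, -0.20 in IS and -0.15 in IS-HA against Normal and -0.083 in IS against IC. With library size alone, Mycn was at 0.033 in IC and Polr1b at 0.016 in IS against Normal, and Nop56 at -0.0061 in IS against IC. With the replicate block, Mycn was at 0.17 in IC against Normal and -0.087 in IS-HA against IS, Polr1b at 0.041 in IS against Normal and Npm1 at 0.018 in IS-HA against IS. With limma, Mxd1 was at -0.015 and Nop56 at -0.064 in IS against IC, and Nop58 at 0.0093 in IS-HA against IS. Without a filter, Nop56 was at -0.010 in IS against IC. When rats were left out in turn, the values of IC against Normal ran from -0.31 to 0.11 for Mycn. Those of IS against IC ran from -0.0072 to 0.12 for Mxd1, from -0.050 to 0.076 for Nop56 and from -0.011 to 0.20 for Polr1b. Those of IS-HA against IS ran from -0.11 to 0.33 for Mycn, from -0.34 to 0.036 for Mxd1, from -0.18 to 0.036 for Npm1, from -0.69 to 0.14 for Fbl, from -0.076 to 0.098 for Nop56 and from -0.12 to 0.049 for Nop58.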
